A study of Mus musculus with 9 samples.

Results

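The messenger RNAs of *Hdc*, *Grp* and *Penk* were followed in mouse CD4 T cells through allergic airway inflammation. *Hdc* encodes histidine decarboxylase, the enzyme that makes histamine. *Grp* and *Penk* encode the precursors of the neuropeptides gastrin-releasing peptide and enkephalin. These 3 genes, of 19937 genes measured, were chosen because their array levels differed between the groups of cells. Their levels and differences are therefore given as a description, with no test. Each gene has 1 probe set that names it alone, and 0 probe sets name it together with another gene.

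RNA was hybridised to 9 Affymetrix arrays, 3 per group, labelled as biological replicates. Naive cells (CD4+ CD62L+ CD44-) came from spleens of mice given sham treatment (day 29). Acute Th2 cells and chronic Th2 cells were both sorted as CD4+ CD69+ ST2+ from digested lung, at day 29 and at day 104. The mice with inflammation had 3 intraperitoneal doses of 10 µg ovalbumin in 1.5 mg aluminium hydroxide (days 1, 14 and 21) and then breathed 1% ovalbumin, on 3 days in a row for the acute group or over 12 weeks, with 2 challenges a week, for the chronic group. Cells of the 3 groups were stimulated for 8 h with antibodies to CD3 and CD28 after the sort. Every level was thus measured after that stimulation. The sources used here give no strain, no age and no number of animals behind a sample, and the p-values below measure the spread between the arrays. Tissue, treatment and the markers sorted on differ together between naive and Th2 cells, so that these cannot be told apart. Day differs together with the length of challenge between acute and chronic cells and also separates chronic from naive cells. These cannot be told apart either.

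Histamine is formed from the amino acid histidine in a single step by histidine decarboxylase. It is best known from mast cells and basophils, which store it in granules and release it in allergic reactions, and it acts through a family of G protein-coupled receptors. Gastrin-releasing peptide is a bombesin-like peptide of neurons and of the neuroendocrine cells of the airway, and its main receptor is encoded by *Grpr*. Proenkephalin is cut by proprotein convertases and trimmed by carboxypeptidases into enkephalins, which act on delta and mu opioid receptors. *Penk* messenger RNA has long been known from activated T helper cells of the mouse.

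The promoter window of *Hdc* is shown because it is the stretch of DNA from which the enzyme's message is started. It is RefSeq's GRCm38.p6 window chr2:126618629-126618928 on the minus strand, from 250 bases before to 50 bases after the gene's start, and RefSeq's table held such a window for 1 of the 3 genes. Capitals mark matches to 2 of 6 motifs searched on both strands, GATA and GGGCGG (a GC box).
Hdc promoter: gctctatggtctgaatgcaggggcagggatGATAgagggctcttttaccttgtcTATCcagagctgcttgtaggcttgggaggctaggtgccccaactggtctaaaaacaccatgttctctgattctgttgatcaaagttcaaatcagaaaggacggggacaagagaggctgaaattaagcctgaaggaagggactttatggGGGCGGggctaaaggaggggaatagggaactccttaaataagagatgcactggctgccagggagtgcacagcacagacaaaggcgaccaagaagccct
The window holds 2 GATA matches, at -220 and -196 from the start, the latter on the opposite strand, and 1 GC box at -48, and no match overlaps another. GATA is in 57.9% and GGGCGG in 35.7% of 32851 windows of the same length. No match was found for TGANTCA (AP-1, in 7.81% of windows), TGACGTCA (the cyclic AMP response element, 1.79%), GGAAA (the NFAT core, 61.3%) or TATAAA (13.6%). These matches describe the letters only.

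*Hdc* was highest in acute Th2 cells and lower, yet still above naive cells, in chronic Th2 cells. Its log2 intensity was 6.48, 6.54 and 6.73 on naive arrays 1 to 3, 9.66, 9.15 and 9.19 on the acute arrays, and 7.46, 7.35 and 7.80 on the chronic arrays. The groups do not overlap, and the acute arrays lie 1.35 above the highest chronic array. The means were 6.58 ± 0.13 in naive, 9.33 ± 0.28 in acute and 7.54 ± 0.24 in chronic cells (SD, n = 3 each). The difference of log2 means was 2.75 between acute and naive cells and 0.95 between chronic and naive cells, so chronic cells had 34.7% of the log2 difference of acute cells, or 20.1% with each array centred on its olfactory receptor genes, a measure of background. Between chronic and acute cells it was -1.80, a 3.47-fold lower intensity, in place 2 among the negative differences of that comparison.

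*Grp* followed the same order. Its log2 intensity was 6.26, 6.15 and 6.54 on the naive arrays, 8.86, 8.74 and 8.82 on the acute arrays and 7.35, 7.48 and 6.93 on the chronic arrays. The acute arrays are the high ones and span 0.12, while the chronic arrays span 0.56, and the nearest of them lies 0.39 above the naive arrays. The means were 6.32 ± 0.20, 8.81 ± 0.06 and 7.25 ± 0.29 (SD, n = 3 each). The log2 difference was 2.49 between acute and naive cells and 0.94 between chronic and naive cells, 37.6% of the former, or 21.5% with that centring, and naive *Grp* was itself near background. Chronic cells were 1.55 lower than acute cells on the log2 scale (2.94-fold in intensity), in place 7 among the negative differences.

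*Penk* was high in both groups of lung cells. Its log2 intensity was 5.51, 5.64 and 5.93 on the naive arrays, 10.79, 11.02 and 10.71 on the acute arrays, and 11.43, 11.64 and 11.35 on the chronic arrays. All 6 Th2 arrays lie at least 4.78 above the naive arrays, and the chronic arrays at least 0.33 above the acute ones. The means were 5.69 ± 0.22, 10.84 ± 0.16 and 11.47 ± 0.15 (SD, n = 3 each). The log2 difference from naive cells was 5.15 in acute cells, in place 11 among the largest positive differences of that comparison, and 5.78 in chronic cells, in place 7. Chronic cells were 0.64 above acute cells on the log2 scale (1.55-fold in intensity).

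**Figure D1:**
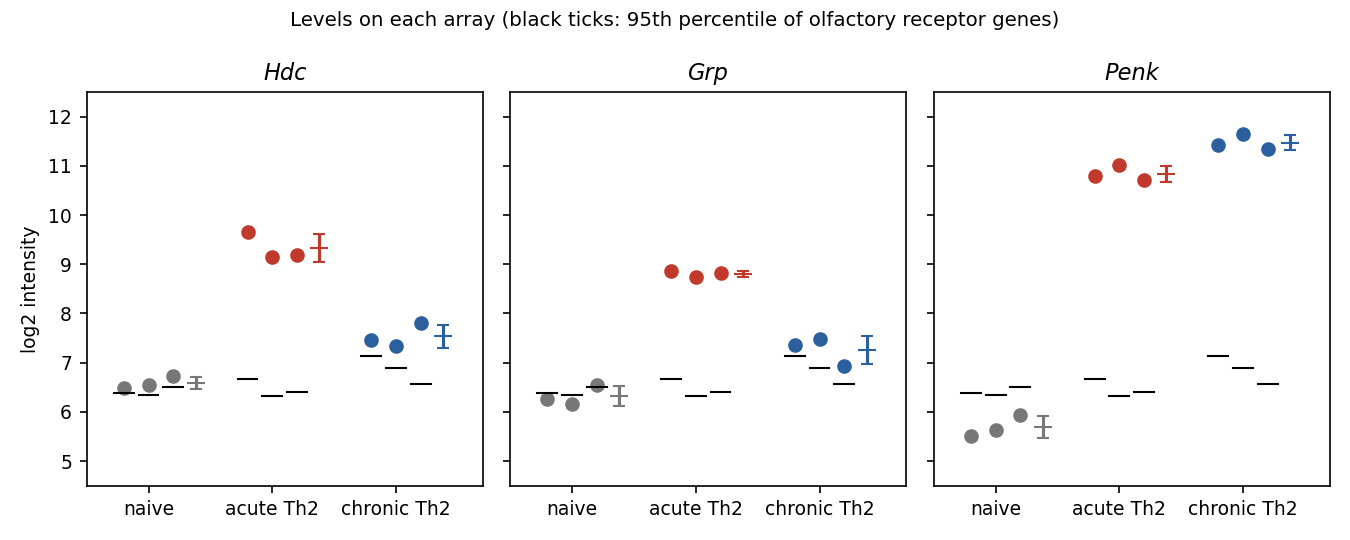
Log2 intensity of Hdc, Grp and Penk on each of 9 arrays (dots), with the mean and SD of the 3 arrays of a group (bars) and the 95th percentile of olfactory receptor genes on the same array (black ticks). Hdc and Grp are highest on the acute Th2 arrays, at means of 9.33 and 8.81, while Penk is high on the acute and chronic arrays, at 10.84 and 11.47.

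For the 3 genes together, 3 of 3 were higher without overlap in acute than in naive cells, as were 8.8% of all genes, and 3 of 3 in chronic than in naive cells, as were 15.6% of all genes. Between chronic and acute cells, *Hdc* and *Grp* were lower without overlap, as were 10.8% of all genes, and *Penk* was higher without overlap, as were 11.8%. The order acute above chronic above naive, with the 3 groups apart, holds for *Hdc* and *Grp* and for 0.938% of all genes. The order chronic above acute above naive holds for *Penk* and for 0.647%. The genes were chosen on these contrasts, and nothing is read from these counts. The comparisons with naive cells share the naive arrays.

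The low ends of these ranges lie near background. Olfactory receptor genes, 1015 in number, which belong to the nose, served as a measure of it. *Penk* lay under their 95th percentile on 3 of 3 naive arrays, *Grp* on 2 of 3, and *Hdc* was above it on 3 of 3 by small margins, with percentiles of 6.39, 6.35 and 6.51. The folds against naive cells are thus those of intensity and not of expression. On chronic arrays 1, 2 and 3 the percentile was 7.14, 6.88 and 6.57, and *Hdc* and *Grp* were above it on each of the 3.

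The median of the olfactory receptor genes was itself higher on chronic arrays 1 and 2 (5.67 and 5.51) than on the other 7 arrays (4.94 to 5.21). Above this median, *Hdc* had 1.42, 1.60 and 1.62 on the naive arrays. It had 4.45, 4.17 and 4.19 on the acute arrays and 1.79, 1.84 and 2.65 on the chronic arrays. *Grp* had 1.20, 1.21 and 1.44, then 3.65, 3.76 and 3.81, then 1.69, 1.98 and 1.77. *Penk* had 0.44, 0.70 and 0.83, then 5.58, 6.04 and 5.70, then 5.76, 6.14 and 6.20. For *Penk*, then, the acute and chronic arrays overlap once centred, and the log2 difference between them is 0.26 in place of 0.64. With the same centring the differences of *Hdc* and *Grp* between chronic and naive cells are 0.55 and 0.53. That centring moves the median of all genes by -0.41 between chronic and naive cells and by -0.38 between chronic and acute cells. Relative to the median gene the differences between chronic and naive cells are 0.91 for *Hdc*, 0.89 for *Grp* and 5.74 for *Penk*, and those between chronic and acute cells are -1.84, -1.60 and 0.59.

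**Figure D2:**
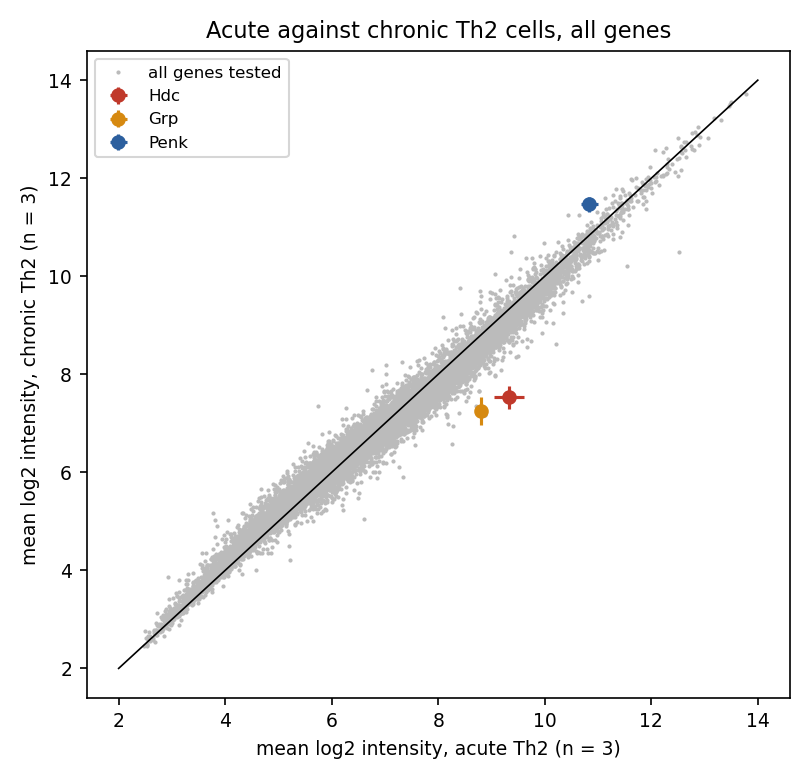
Mean log2 intensity in chronic Th2 cells (vertical axis) against acute Th2 cells (horizontal axis) for 19937 genes (grey), with the 3 genes in colour and SD bars over 3 arrays, and the line of equal levels in black. Hdc and Grp lie below the line, with differences of -1.80 and -1.55, and Penk lies 0.64 above it.

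Likeness to other genes was measured as the root mean square distance of log2 levels, each centred on the gene's own mean, over the 9 arrays. It was taken among 10138 named genes with a group mean above background, without predicted genes and Riken clones. The distance is not scaled, so that it also reflects the size of a gene's differences. *Hdc* and *Grp* were close to each other, at a distance of 0.30. *Grp* was the nearest gene to *Hdc*, and *Hdc* was in place 2 for *Grp*. Both were chosen for their pattern on these same arrays, so nothing is read from their closeness. *Penk* lay at 1.99 from each, in place 10075 for *Hdc* and 10092 for *Grp*. Seen from *Penk*, *Hdc* was in place 263 and *Grp* in place 260.

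The nearest genes to *Hdc* after *Grp* were *Mki67*, a marker of dividing cells (0.42), the mitotic kinesin gene *Kif11* (0.46), *Inhba*, which encodes a subunit of activin A (0.46), and *Aqp9*, a channel for water and glycerol (0.46). The nearest to *Grp* were *Mki67* (0.28), *Hdc*, *Kif11* (0.33), the topoisomerase gene *Top2a* (0.35) and the cyclin gene *Ccna2* (0.36). *Mki67* had mean levels of 6.23 in naive, 8.39 in acute and 7.20 in chronic cells, the order that *Hdc* and *Grp* have. The nearest genes were picked for likeness on these same arrays, so a shared order follows from the choice. Nothing is read from it. The part of cell division in the levels of *Hdc* and *Grp* was not tested. The nearest to *Penk* were the chemokine receptor gene *Cxcr6* (0.27), the inhibitory receptor gene *Tigit* (0.29), *Il4*, the cytokine of Th2 cells (0.33), the inhibitory receptor gene *Ctla4* (0.37) and the metallothionein gene *Mt2* (0.38). *Cxcr6* had means of 5.77, 11.16 and 11.28 in the 3 groups, and *Il4* of 6.06, 11.63 and 11.95.

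**Figure D3:**
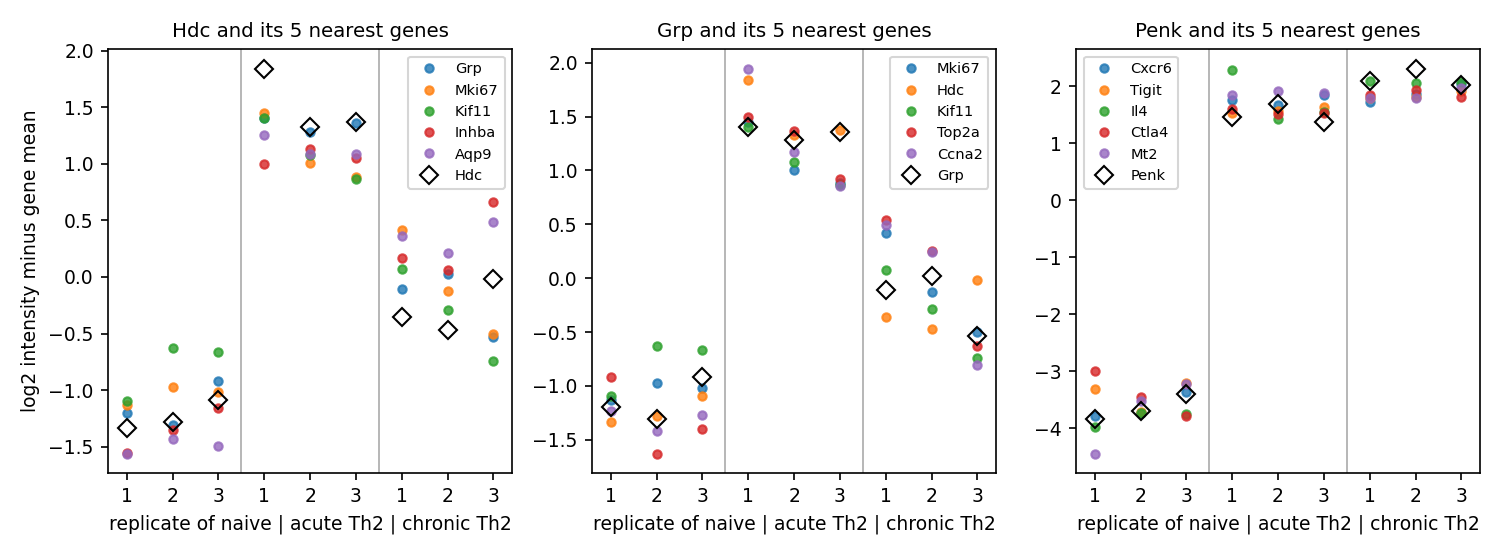
Log2 intensity minus the gene's mean over the 9 arrays (vertical axis), by array (horizontal axis: replicates 1 to 3 of naive, acute Th2 and chronic Th2 cells), for each of the 3 genes (diamonds) and its 5 nearest genes (dots). The neighbours of Hdc and Grp peak on the acute arrays, and those of Penk are high on all 6 Th2 arrays, which follows from their choice by distance.

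Around the members, 142 measured genes of 9 lists (histamine and peptide pathways, their receptors, processing enzymes and related factors) were read from the same limma fit over all genes, with adjusted p under 0.05 as the threshold. Between acute and naive cells 9 of them were higher and 2 lower, beside 3.67% and 2.2% of all genes. Between chronic and naive cells 8 were higher and 3 lower, beside 3.68% and 4.2% of all genes. With each array centred on olfactory receptor genes, 5 were higher and 8 lower in this comparison. The median log2 difference was -0.01 and 0.10 over the lists, and -0.03 and 0.04 over all genes. Between chronic and acute cells limma called 0 of them, with 17 at an unadjusted p under 0.05, and 0.015% of all genes were called in each direction. The count of 11 between acute and naive cells was 17 without naive replicate 1 and 7 without acute replicate 2. The count of 11 between chronic and naive cells was 21 without naive replicate 1, and 7 without naive replicate 3, acute replicate 2, acute replicate 3, chronic replicate 1 or chronic replicate 2.

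For histamine, 1 of 12 other measured genes of the list passed, a receptor in acute cells. The list's median difference from naive cells was -0.03 in acute and 0.12 in chronic cells. *Hrh2*, the receptor that acts through cyclic AMP, was 6.94, 6.87 and 6.98 on the naive arrays and 7.25, 7.44 and 7.46 on the acute arrays, a difference of 0.45 (adjusted p = 0.029). It missed the threshold without naive replicate 2, naive replicate 3, acute replicate 2, acute replicate 3 or chronic replicate 1, and over 17 alternatives its adjusted p ran from 0.00121 to 0.471. In chronic cells *Hrh2* was 7.29 ± 0.13 (SD, n = 3), 0.36 above naive cells (adjusted p = 0.0604), and slightly below them once centred on olfactory receptor genes. *Hrh1*, the receptor behind itch and smooth muscle contraction, had 7.07, 6.94 and 7.06 in naive, acute and chronic cells. *Hrh3* had 6.26, 6.30 and 6.38, and *Hrh4*, the receptor of many blood cells, 4.97, 5.08 and 5.10. *Hnmt*, which inactivates histamine by methylation, had 4.60, 4.53 and 4.61, and *Slc18a2*, which loads histamine into vesicles, 6.22, 6.22 and 6.33. None of these 5 passed in a comparison, and all but *Hrh1* lay under the background percentile on 9 of 9 arrays.

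For gastrin-releasing peptide, the receptor lay under the background percentile on 9 of 9 arrays. *Grpr* had 4.60, 4.55 and 4.76 in naive, acute and chronic cells, and *Nmbr*, the receptor of neuromedin B, 5.49, 5.46 and 5.54, and neither passed in a comparison. Of the 4 other genes of the bombesin list, 1 passed. It was *Nmb*, which encodes the precursor of neuromedin B. Its log2 intensity was 7.32, 6.65 and 6.72 on the naive arrays, 6.14, 6.24 and 6.16 on the acute arrays, and 5.76, 6.20 and 6.17 on the chronic arrays. The naive arrays are the high ones, naive replicate 1 most of all, and *Nmb* was above the background percentile on 0 of 3 acute and 0 of 3 chronic arrays. *Nmb* fell by 0.85 on the log2 scale between naive and chronic cells (adjusted p = 0.0294), and that call was lost without acute replicate 1, 2 or 3, chronic replicate 1 or chronic replicate 2, with adjusted p from 0.00737 to 0.114 over 17 alternatives. In acute cells it was 0.71 lower than in naive cells (adjusted p = 0.0701), which passed without naive replicate 1.

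For enkephalin, the other opioid precursors did not pass in a comparison. *Pdyn*, the dynorphin precursor, had 6.45, 6.40 and 6.39, *Pomc*, the beta-endorphin precursor, 5.88, 5.84 and 5.92, and *Pnoc*, the nociceptin precursor, 6.81, 6.89 and 7.12 in naive, acute and chronic cells. The receptors *Oprd1* (delta; 6.74, 6.67 and 6.78), *Oprm1* (mu; 5.75, 5.68 and 5.91) and *Oprk1* (kappa; 4.93 to 5.10 over the 9 arrays) did not pass in a comparison either. Of the 9 other genes of the opioid list, 1 passed, *Ogfr*, which encodes the opioid growth factor receptor, a protein unlike the classical receptors that binds methionine enkephalin. It was 8.41 ± 0.14 in naive, 8.05 ± 0.18 in acute and 7.69 ± 0.30 in chronic cells (SD, n = 3 each), and fell by 0.72 on the log2 scale between naive and chronic cells (adjusted p = 0.031). That call was lost without naive replicate 2 or 3, acute replicate 2 or 3, or chronic replicate 1 or 2, with adjusted p from 0.00225 to 0.0967 over 17 alternatives.

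Among enzymes that cut and trim precursor proteins, *Furin*, *Cpd* and *Pcsk1* rose and *Ctsl* fell in both lung groups against naive cells, 4 of 20 measured genes. The list's median difference was -0.02 in acute and 0.02 in chronic cells. Without acute replicate 2 the acute count was 2 higher and 0 lower. *Furin*, a convertase of the general secretory pathway, was 8.06, 8.60 and 8.85 on the naive arrays, 11.30, 11.37 and 11.41 on the acute arrays and 10.74, 10.81 and 11.42 on the chronic arrays. It rose by 2.86 (SE 0.23, adjusted p = 0.000131) in acute and by 2.49 (adjusted p = 0.000296) in chronic cells. *Cpd*, a carboxypeptidase of the Golgi apparatus, was 5.59, 7.89 and 8.04 on the naive arrays and between 10.67 and 10.86 on the 6 Th2 arrays, and rose by 3.65 (adjusted p = 0.00512) and 3.56 (adjusted p = 0.00566). Naive replicate 1 is the low array for *Cpd*.

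*Pcsk1*, the prohormone convertase of neuroendocrine cells, rose as well, but under the background percentile on 9 of 9 arrays. It had 5.38 ± 0.11 in naive, 5.97 ± 0.05 in acute and 6.57 ± 0.17 in chronic cells (SD, n = 3 each; adjusted p = 0.0121 and 0.000258 against naive cells), and the call in acute cells was lost without acute replicate 2. *Ctsl*, a lysosomal protease that can also act on proenkephalin, fell from 7.63 ± 0.83 to 5.91 ± 0.18 in acute cells (SD, n = 3 each; adjusted p = 0.0204) and to 6.26 ± 0.08 in chronic cells (SD, n = 3; adjusted p = 0.0453). *Ctsl* was above the background percentile on 0 of 3 acute and 0 of 3 chronic arrays. The acute call was lost without acute replicate 1, 2 or 3, and the chronic one without any 1 array except naive replicates 1 and 2. Of the 7 enkephalin-degrading peptidases measured, 1 passed. *Ece1* rose by 1.92 in acute cells (adjusted p = 0.0334, from 0.00047 to 0.135 over 17 alternatives), a call lost without acute replicate 1, 2 or 3, chronic replicate 1 or chronic replicate 2, and in chronic cells it was 1.64 above naive cells (adjusted p = 0.0523), which passed without naive replicate 1.

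**Figure D4:**
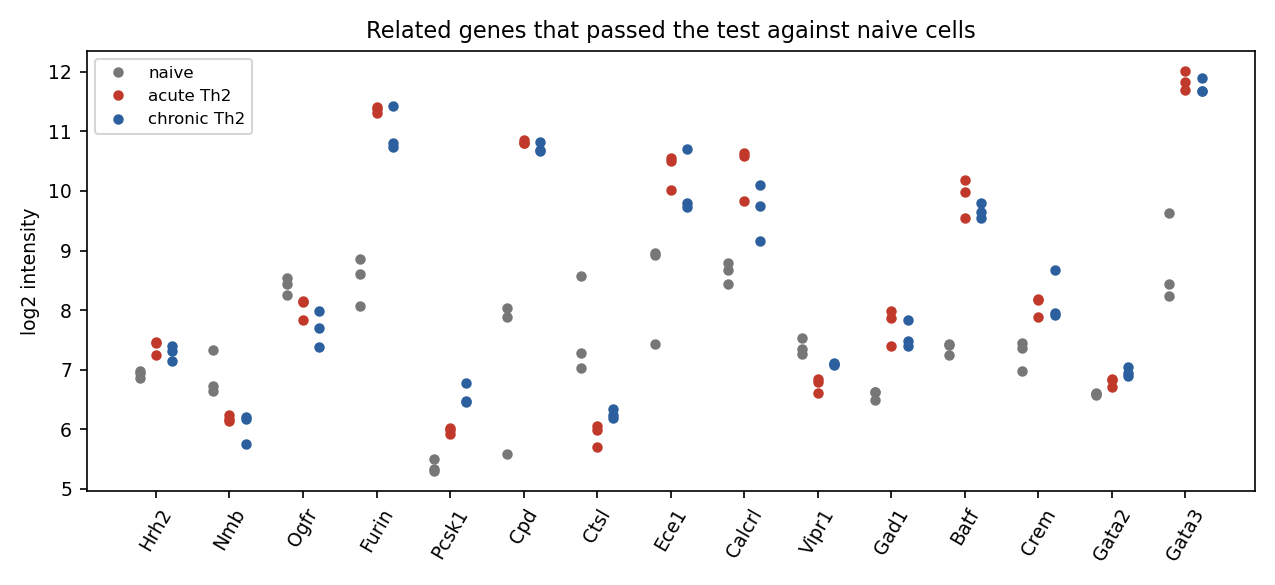
Log2 intensity of 15 genes of the related lists on each array (dots; 3 arrays each of naive, acute Th2 and chronic Th2 cells), each past the threshold against naive cells in at least 1 comparison. Furin and Cpd stand higher on the 6 Th2 arrays, and Nmb, Ogfr and Ctsl stand lower.

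Of 28 other precursors measured, limma called 0 in acute cells (0 at an unadjusted p under 0.05) and 0 in chronic cells (4 at an unadjusted p under 0.05) against naive cells, with median differences of -0.01 and 0.08. Of 27 receptors, 1 rose and 1 fell in acute cells and 0 passed in chronic cells, with 4 at an unadjusted p under 0.05. The count of receptors in chronic cells was 2 higher without naive replicate 1, and 1 without acute replicate 1, chronic replicate 1 or chronic replicate 2. *Calcrl*, a receptor subunit for calcitonin gene-related peptide and adrenomedullin, was 8.63 ± 0.18 in naive and 10.35 ± 0.45 in acute cells, a rise of 1.72 (SD, n = 3 each; limma adjusted p = 0.00731), and was 9.66 ± 0.47 (SD, n = 3) in chronic cells (adjusted p = 0.0575). *Vipr1*, a receptor of vasoactive intestinal peptide, fell by 0.63 on the log2 scale in acute cells (adjusted p = 0.00603). Of 16 other enzymes and transporters of amine transmitters, 1 rose in acute cells and 1 in chronic cells. It was *Gad1*, which makes the transmitter GABA, higher by 1.16 (adjusted p = 0.00463) and 0.98 (adjusted p = 0.01), and by 1.13 (adjusted p = 0.051) and 0.58 (adjusted p = 0.108) once centred on olfactory receptor genes. *Ddc*, the decarboxylase most closely related to histidine decarboxylase, had 5.23, 5.33 and 5.38 and did not pass.

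Of 19 transcription factors of the CREB, AP-1, NFAT and GATA families, 2 rose in acute and 4 in chronic cells. *Batf*, an AP-1 factor of effector T cells, rose by 2.54 (SE 0.16, adjusted p = 2.88e-05) and 2.30 (adjusted p = 5.51e-05), and *Gata3*, the lineage factor of Th2 cells, by 3.07 (adjusted p = 0.000567) and 2.98 (adjusted p = 0.00068). *Crem*, a cyclic AMP responsive factor, rose by 0.92 in chronic cells (adjusted p = 0.0359), a call lost without any 1 array except naive replicate 1 and chronic replicate 3. *Gata2*, the GATA factor of mast cells and basophils, was 6.60, 6.58 and 6.61 on the naive arrays, 6.84, 6.82 and 6.70 on the acute arrays and 6.95, 7.05 and 6.90 on the chronic arrays. Its difference of 0.37 between chronic and naive cells passed (adjusted p = 0.0233), was lost without naive replicate 2 or 3 or chronic replicate 1 or 2, and turned negative once centred on olfactory receptor genes. Without naive replicate 1 the counts of these factors were 6 higher and 1 lower in acute cells and 8 higher and 3 lower in chronic cells. They were 3 higher in acute cells without chronic replicate 3, and 2 higher in chronic cells without naive replicate 2 or 3 or chronic replicate 1 or 2.

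Markers of other cells that use these genes were set beside them. In RNA of sorted cells, fewer cells of a type and less RNA per cell cannot be told apart. Of 17 mast cell genes, 2 were above the background percentile on each naive array, 1 to 4 on the acute arrays and 0 to 1 on the chronic arrays. Their summed log2 level ran from 86.8 to 89.0 in naive, from 88.4 to 89.7 in acute and from 88.9 to 91.0 in chronic cells. The defining genes *Cpa3* (4.29, 4.30 and 4.57), *Fcer1a* (4.02, 4.03 and 4.38) and *Ms4a2* (4.33, 4.33 and 4.43), a protease and subunits of the high-affinity IgE receptor, lay under the median of olfactory receptor genes on 9 of 9 arrays. *Tpsg1*, a tryptase gene of the same list, had 6.68, 6.72 and 6.83. It was above the percentile on 3 of 3 naive, 3 of 3 acute and 1 of 3 chronic arrays. *Hpgds*, a prostaglandin D synthase that other cells also use, was above it on 1 of 3, 2 of 3 and 0 of 3. For *Kit*, the stem cell factor receptor, these counts were 2, 2 and 0. Limma called 0 mast cell genes in the 3 comparisons, with 2, 3 and 2 at an unadjusted p under 0.05. The part of mast cells in the level of *Hdc* was not tested.

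Of 9 basophil genes, 3 were above the percentile on each naive array, 4 on the acute arrays and 2 to 4 on the chronic arrays, with summed levels of 49.5 to 50.7, 53.5 to 55.0 and 53.3 to 55.0. Most of the rise in the sum came from 1 gene, *Cyp11a1*. The list's median difference from naive cells was 0.02 in acute and 0.10 in chronic cells. The basophil proteases *Mcpt8* (5.25, 5.32 and 5.32) and *Prss34* (5.92, 5.94 and 5.80) were under the percentile on 9 of 9 arrays. Of the same list, *Il3ra* (7.62, 7.58 and 7.69) was above it on 3 of 3 arrays of each group. *Itga2b* (7.12, 6.87 and 6.94) was above it on 3 of 3 naive, 3 of 3 acute and 1 of 3 chronic arrays. Besides *Gata2*, the gene of this list that passed was *Cyp11a1*, the first enzyme of steroid synthesis, which was 5.21 ± 0.30 in naive and rose to 8.93 ± 0.33 in acute and to 8.49 ± 0.64 in chronic cells (SD over 3 arrays; limma adjusted p = 0.000192 and 0.000395). Its chronic arrays read 8.37, 9.18 and 7.92, and those of *Hdc* 7.46, 7.35 and 7.80. The part of basophils in the level of *Hdc* was not tested.

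For *Grp*, 9 genes of pulmonary neuroendocrine cells were measured, 1 to 2 of them above the percentile on the naive and acute arrays and 0 to 1 on the chronic arrays. Their summed level ran from 51.5 to 52.1, from 51.4 to 52.8 and from 52.4 to 53.4, and limma called 0 of them, with 0 at an unadjusted p under 0.05 in each comparison. *Chga*, the granule protein chromogranin A, had 6.34, 6.33 and 6.42 and was under the percentile on every array. *Insm1*, another gene of this list, had 6.71, 6.75 and 6.86. It was above the percentile on 3 of 3 naive, 3 of 3 acute and 2 of 3 chronic arrays, and *Syp* on 1, 1 and 0.

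**Figure D5:**
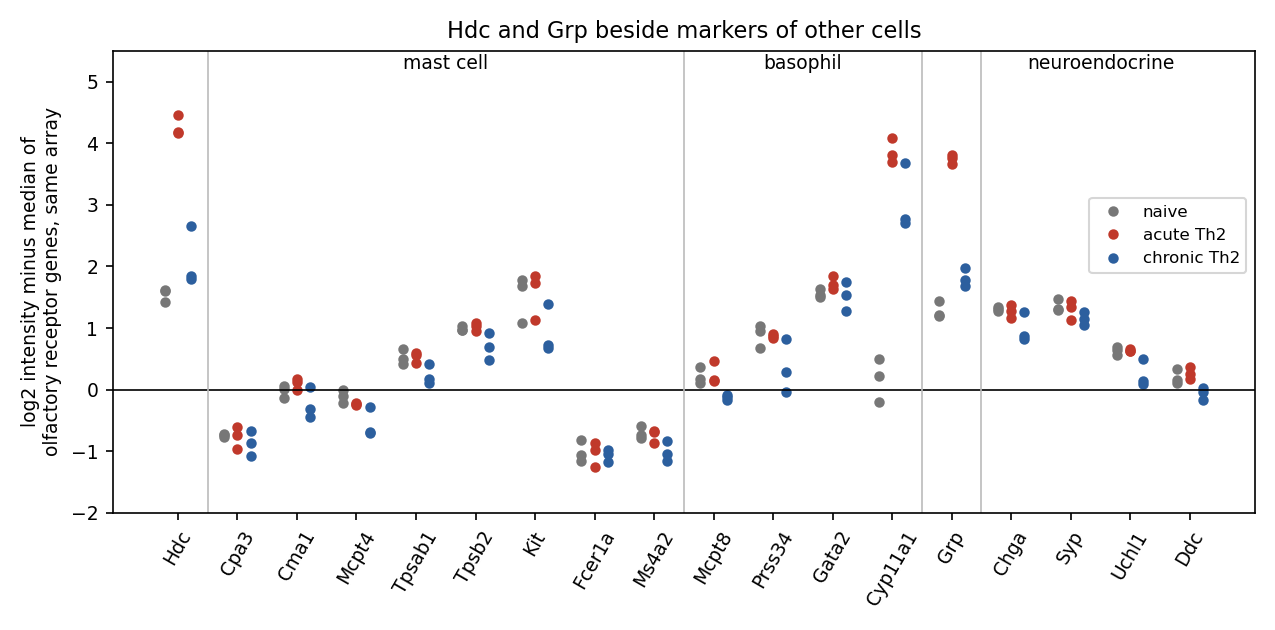
Log2 intensity minus the median of olfactory receptor genes on the same array (vertical axis) for Hdc and Grp and for markers of mast cells, basophils and neuroendocrine cells, on each of 3 naive, 3 acute Th2 and 3 chronic Th2 arrays (dots). The markers shown are a selection from each list. Some markers above the background percentile, such as Tpsg1, Hpgds, Il3ra, Itga2b and Insm1, are not shown. Hdc lies at 4.17 to 4.45 on the acute arrays. The markers shown range from below 0 (Cpa3, Fcer1a, Ms4a2) to the raised Th2 arrays of Cyp11a1. The part of mast cells, basophils and neuroendocrine cells was not tested.

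The arrays carried the markers of T cells. The 9 measured T cell identity genes were above the percentile on every array, although *Cd5* and *Lat*, which encode signalling proteins of the T cell receptor, fell in both lung groups and the list's median difference from naive cells was -0.34 in acute and -0.27 in chronic cells. Of those calls, that of *Cd5* in chronic cells held without any 1 array, and the acute calls of both genes and the chronic call of *Lat* were lost without naive replicate 3 or any 1 Th2 array (that of *Cd5* also without naive replicate 2). Of 11 Th2 genes, 10 to 11 were above it on the 6 Th2 arrays against 2 to 5 on the naive arrays. *Cd44*, a sort marker, was 7.54 ± 0.22 in naive, 9.47 ± 0.26 in acute and 9.43 ± 0.24 in chronic cells (SD, n = 3 each). The message of *Cd69*, which the Th2 cells were sorted on and which stimulation also induces, ran the other way, at 11.62 ± 0.90, 11.12 ± 0.30 and 10.53 ± 0.52 (SD, n = 3 each), and *Cd4* had 9.96, 10.31 and 9.77. Neither *Cd69* nor *Cd4* passed in a comparison. The messages of the sort markers CD62L and ST2 are not analysed here. Regulatory T cells express *Penk* in mice, and their lineage factor *Foxp3* was 8.96, 9.03 and 9.26 on the naive arrays, 10.10, 10.72 and 10.67 on the acute arrays and 10.29, 10.08 and 10.26 on the chronic arrays. Of 10 genes of the regulatory T cell list, 5 rose in acute and 5 in chronic cells (7 higher and 1 lower in chronic cells without naive replicate 1), and their summed level ran from 80.1 to 87.9 in naive, 101.3 to 103.4 in acute and 101.9 to 102.2 in chronic cells. The lowest sum was that of naive replicate 1, where *Il2ra* was 9.39 and *Tnfrsf9* 7.32, against 12.03 and 11.10 on naive replicate 2. Not all of the list rose. *Lrrc32* had 8.18, 8.53 and 7.46, and *Izumo1r* 9.03, 9.10 and 8.76 in naive, acute and chronic cells. The part of regulatory T cells in the level of *Penk* was not tested. Type 2 innate lymphoid cells of the mouse can also hold *Penk* message. Of 8 genes of their list, which holds genes that T cells also use (*Rora*, *Il7r*, *Thy1*, *Klrg1*), 4 were above the percentile on the naive arrays, 7 to 8 on the acute arrays and 6 to 7 on the chronic arrays, with summed levels of 57.7 to 59.5, 69.5 to 69.7 and 69.1 to 69.8. Their part was not tested.

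Naive replicate 1 stood apart from naive replicates 2 and 3 in its response to the stimulation. *Il2*, the growth factor gene that stimulation switches on, was 5.07 on it and 11.33 and 11.27 on naive replicates 2 and 3. The members' levels on naive arrays are too near background to show whether they differed in this respect. Over 14 stimulation response genes the summed log2 level was 119.2, 146.3 and 150.1 on naive arrays 1 to 3. On the acute arrays the sum was 134.9, 138.6 and 137.3, and on the chronic arrays 128.1, 127.2 and 139.3. Chronic arrays 1 and 2 thus lay below every acute array. The part of the stimulation response in the levels of *Hdc*, *Grp* and *Penk* was not tested. Leaving out any 1 of the 9 arrays left the acute minus naive difference between 2.59 and 2.84 for *Hdc*, between 2.41 and 2.60 for *Grp* and between 5.05 and 5.27 for *Penk*. For chronic minus acute cells it left -1.93 to -1.63, -1.67 to -1.39 and 0.55 to 0.73.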

How the data were processed

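The deposited values are log2 intensities, 1 per probe set and array, made by the authors with RMA, per the submitters' processing notes, which also name limma. The sources used here state no version, build or filter. No further normalization was applied. Of 34760 probe sets, 21640 are listed with 1 gene, and a gene was represented by the one with the highest mean, giving 19937 genes. No gene was filtered out. No detection call or scan date was used, and the number of arrays limits the precision.

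Groups came from the titles. For related genes, a moderated linear model (limma 3.58.1, R 4.3.3; two-sided, all 9 arrays, group as the only term) was fitted over all genes and Benjamini-Hochberg adjusted, with a threshold of 0.05, after a check on simulated data. The members had no test. With 3 arrays against 3 the smallest two-sided exact permutation p is 0.1, and none is given. The members and lists were chosen with earlier results of these data known. Of 148 list symbols, 142 were measured. Named were the members, list genes past the threshold (up to 6 per list), their receptors and the 5 nearest genes by distance; some list and marker genes were named after their values were seen. Alternatives are in the closing section.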

Additional observations from a re-analysis of the deposited data

How the results depend on the processing

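Under the alternatives that apply to them, the differences of the 3 members kept their direction. Centring each array on olfactory receptor genes moved them to 0.55 (Hdc), 0.53 (Grp) and 5.37 (Penk) between chronic and naive cells, and to -2.17, -1.93 and 0.26 between chronic and acute cells. Array weights gave 4.95 for Penk between acute and naive cells and 0.81 between chronic and acute cells. Quantile normalization again moved no member by more than the spread between replicates, and the mean of probe sets could not move them, since each has 1 probe set.

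Counts of called genes moved more. Between acute and naive cells 1171 genes were called, against 643 after centring, 4019 with array weights, 762 with only the 2 groups in the fit, and 653 to 2424 without 1 array. Of the related genes 11 were called, against 6 after centring, 21 with array weights, and 7 to 17 without 1 array. Between chronic and naive cells 1571 genes were called (734 higher and 837 lower), against 3599 after centring (314 higher and 3285 lower), 4675 with array weights, 686 with only the 2 groups, and 734 to 3438 without 1 array. Of the related genes 11 were called (8 higher and 3 lower), against 13 after centring (5 higher and 8 lower), 19 with array weights, 6 with only the 2 groups, and 7 to 21 without 1 array. Between chronic and acute cells 6 genes were called, against 44 after centring (0 higher), 6721 with array weights, 3 with an intensity trend, 2 with only the 2 groups, 0 with the replicate number as a block, and 0 to 12 without 1 array. Of the related genes 0 were called, against 41 with array weights and 0 without any 1 array. The cause of these moves was not tested. Replicate numbers share no stated animal or day, and same-numbered arrays of different groups deviated with correlations from -0.09 to 0.57, so that they were not taken as pairs. Levels near background limit what the naive arrays can show.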

Other observations

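Chronic Th2 replicate 3 held the highest Hdc and the lowest Grp of the chronic arrays on the deposited scale. Hdc was highest on it (7.80, against 7.46 and 7.35) and Grp was lowest (6.93, against 7.35 and 7.48). On the same array Il2 was highest (11.70, against 9.95 and 8.95) and Mki67 was lowest (6.77, against 7.69 and 7.15). Above the array's median of olfactory receptor genes, Hdc was again highest on it (2.65, against 1.79 and 1.84), but Grp (1.77) lay between both others (1.69 and 1.98). The values are given for 1 array, with no test.

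The gene with a larger fall in intensity than Hdc from acute to chronic cells was Il3, which encodes a growth factor of mast cells and basophils. Its mean level was 6.10 in naive, 12.51 in acute and 10.50 in chronic cells, a difference of -2.02 between chronic and acute cells with an SE of 0.98 and an adjusted p of 0.357 in limma. It was named after its values were seen.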
